A study of Rattus norvegicus with 67 samples.

Results

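The comparison described here asked whether sperm of rats with disease, whatever the disease, differed in histone retention from sperm of rats without disease within the atrazine lineage. All 50 atrazine lineage males with counts were used, out of 66 animals with counts in the whole series. They were divided by the disease tag of the sample list alone. With a disease tag there were 31 animals, namely 14 with multiple disease, 5 with late puberty, 5 lean ones, 4 with testis disease and 3 with kidney disease, and the reference was the 19 animals with no disease tag, M59 and M68 included. No measured value entered this choice. The 16 control lineage animals with counts, of which 7 had a disease and 9 had none, were kept for a separate comparison.

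All animals were F3 generation males of the outbred Hsd:Sprague Dawley SD strain, examined at an age of 1 year. The gestating F0 females of the atrazine lineage had received 25 mg/kg of atrazine daily from day 8 to day 14 of gestation, and those of the control lineage had received the solvent dimethyl sulfoxide (DMSO). The F3 males were therefore never exposed themselves, and by their lineage tag the diseased and the disease-free animals shared the same ancestral exposure. The treatment tag of some animals goes against this, as described below. Each animal of the multiple disease group had more than 1 disease, so that group is a mixture. By their tags most of these animals were also lean, and several had testis disease, kidney disease or late puberty. Prostate disease, obesity and a tumor also occurred among them. The multiple disease group thus shares diseases with the other disease groups. Sperm was taken from the cauda of the epididymis, and histone-bound DNA was collected by chromatin immunoprecipitation with an antibody for histone H3 and sequenced (ChIP-Seq). Sperm identity was not checked against marker genes here, because the windows were not annotated with genes.

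Atrazine is a herbicide of the triazine class that is used widely on crops. During the last stages of sperm development most histones are replaced by protamines, small basic proteins that pack the DNA tightly, and histones stay on only a small part of the genome. Such retained histones are one of the routes, beside DNA methylation and RNA, by which sperm can carry epigenetic information. A genomic site where the retention differs between groups is called a differential histone retention region (DHR).

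Reads were counted by the authors in 2782040 windows of 1000 bp, and the 2485209 windows that averaged 10 reads or more over the 50 animals were tested. Total counts lay between 20151792 and 107770271 in the animals with disease and between 22211333 and 239635003 in the animals without disease. The median total was lowest in the lean group, at 33830006 reads, and between 45134096 and 62295125 in the other disease groups. The median was 60554457 in the disease-free animals. Lean animal M28 and multiple disease animal M48 stood apart from the others, with 18.4% and 37.2% of their reads in the 5% of windows with the most reads, where the disease-free animals had between 13.6% and 15.8%. Of the 50 animals 13, M57 to M69, carry the treatment tag DMSO although their lineage is atrazine, and 7 of them had a disease. All 16 control lineage animals carry the treatment tag Atrazine, which also goes against their lineage. The lineage was followed, and the control lineage comparison rests on it.

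No window differed between the diseased and the disease-free animals after correction for the number of windows. In edgeR's quasi-likelihood test, 0 windows had a Benjamini-Hochberg adjusted p below 0.05, the smallest p was 1.32e-06, and the smallest adjusted p was 1. An unadjusted p below 0.05 was found for 77450 windows, or 3.12% of those tested, of which 43398 (1.75%) were higher and 34052 (1.37%) lower in disease. A p below 0.0001 was found for 25 windows (0.00101% of those tested), while 249 would be expected if p-values were uniform. On a random sample of 250000 windows, edgeR's exact test gave 1 window with an adjusted p below 0.05, and DESeq2 gave 0. An unadjusted p below 0.05 was found there for 5.39% of windows by the exact test and 4.1% by DESeq2. Both shares were above the 3.12% of the quasi-likelihood test over all windows, so the shortfall against uniform p-values depends on the test.

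The differences themselves were small and were measured with fair precision. The median log2 fold change of all windows was 0.01, and all but the 0.5% of windows at either end lay between -0.33 and 0.42. The most extreme values were -0.98 and 0.96. The median standard error was 0.14, and the 95% interval of the difference lay within 1.5-fold in 93% of the windows and within 2-fold in 99.8%. In no window did all 31 diseased animals lie above or below all 19 disease-free animals.

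The 25 windows with p below 0.0001 gave 25 DHRs, 14 higher (0.000563% of windows) and 11 lower (0.000443%) in disease. Each DHR rested on a single window below that threshold. Without the library M48 alone there were 42 such windows (31 higher, 11 lower) and 41 DHRs, and without M28 and M48 there were 62 (50 higher, 12 lower) and 59 DHRs, while without M28 alone there were 24 (14 higher, 10 lower). The number and the balance of directions thus moved with M48, and moved further with M28 once M48 was left out. None of these windows had an adjusted p below 0.05 in edgeR's quasi-likelihood test. Their changes were between 1.38-fold and 1.84-fold, and their windows held between 10.2 and 24.6 reads per animal on average. That is an ordinary level, as 1864619 of the 2485209 tested windows held 20 to 30 reads. No window with 30 reads or more had a p below 0.0001. Between 14 and 30 of the 31 diseased animals lay inside the range of the disease-free animals. So even at these DHRs the groups overlapped. Since the DHRs were chosen by the pooled p-value, their values below are a description.

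The smallest p of the pooled comparison belonged to chr4:173390001-173391000, which was higher in disease. Reads scaled to library size (RPM, counted per 1000000 reads after TMM scaling) were 0.593, 0.688, 0.566, 0.408 and 0.511 in the lean animals. The kidney disease animals had 0.413, 0.417 and 0.503 RPM. Those with testis disease had 0.318, 0.601, 0.59 and 0.327 RPM. All of these values were above 0.291, the median of the disease-free animals, and the lean group was the highest. The late puberty animals had 0.36, 0.543, 0.466, 0.317 and 0.403 RPM. The multiple disease animals lay between 0.235 and 0.581 RPM with a median of 0.435, and the disease-free animals between 0.0931 and 0.508. The mean was 0.455 ± 0.101 RPM (SD, n = 31) in disease and 0.292 ± 0.0857 RPM (SD, n = 19) in the disease-free animals, which gave a log2 fold change of 0.61 (SE 0.11). Of the 31 diseased animals 30 were above the disease-free median, and yet the ranges overlapped widely.

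The other 4 of the 5 DHRs with the largest change common to the 5 disease groups were all higher in disease. At chr17:48730001-48731000 the lean animals had 0.297, 0.486, 0.368, 0.52 and 0.571 RPM, the kidney disease animals 0.512, 0.436 and 0.503 RPM, and the testis disease animals 0.53, 0.421, 0.59 and 0.301 RPM. The late puberty animals had 0.822, 0.524, 0.542, 0.285 and 0.597 RPM, the multiple disease animals between 0.303 and 0.641 with a median of 0.47, and the disease-free animals between 0.137 and 0.605 with a median of 0.299. Here 29 of the 31 diseased animals were above the disease-free median, and the log2 fold change was 0.61 (SE 0.14). Late puberty animal M35 was the highest of all, and late puberty animal M50 the lowest of the diseased animals.

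At chr8:69592001-69593000 the log2 fold change was 0.88 (SE 0.20), the largest of the 25 DHRs. This window also had the lowest mean of the 25 DHRs, 10.2 reads per animal, just above the filter of 10 reads. The filter took the mean over diseased and disease-free animals together. The higher values in disease, with a mean of 0.253 RPM against 0.127 RPM, thus helped the window to pass, and its rank by size of change is uncertain. The disease-free animals lay between 0 and 0.233 RPM with a median of 0.134, and the diseased animals between 0.0806 and 1.16 with a median of 0.215. The highest value belonged to multiple disease animal M48. The lean animals had 0.339, 0.201, 0.142, 0.148 and 0.33 RPM, the kidney disease animals 0.215, 0.185 and 0.324, the testis disease animals 0.194, 0.21, 0.308 and 0.131, and the late puberty animals 0.231, 0.112, 0.181, 0.206 and 0.258. Most of these values were inside the range of the disease-free animals.

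Animal M48 also had the highest value at both remaining DHRs on chromosome 17, with 1.16 RPM at chr17:70816001-70818000 and 1.08 RPM at chr17:7408001-7409000. At the first of these the diseased animals had a mean of 0.462 ± 0.191 RPM (SD, n = 31) and the disease-free animals 0.286 ± 0.0959 RPM (SD, n = 19), a log2 fold change of 0.61 (SE 0.14). At the second the means were 0.438 ± 0.195 RPM (SD, n = 31) and 0.263 ± 0.117 RPM (SD, n = 19), a log2 fold change of 0.65 (SE 0.16). Above the disease-free median were 28 and 27 of the 31 diseased animals. Without M48 the 25 DHR windows kept their directions and 20 of them kept a p below 0.0001. Fewer kept it without M59 and M68, 10, with equal weights of the disease groups, 8, and without the multiple disease group, 4. All of these fits reuse animals that chose the DHRs.

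**Figure D1:**
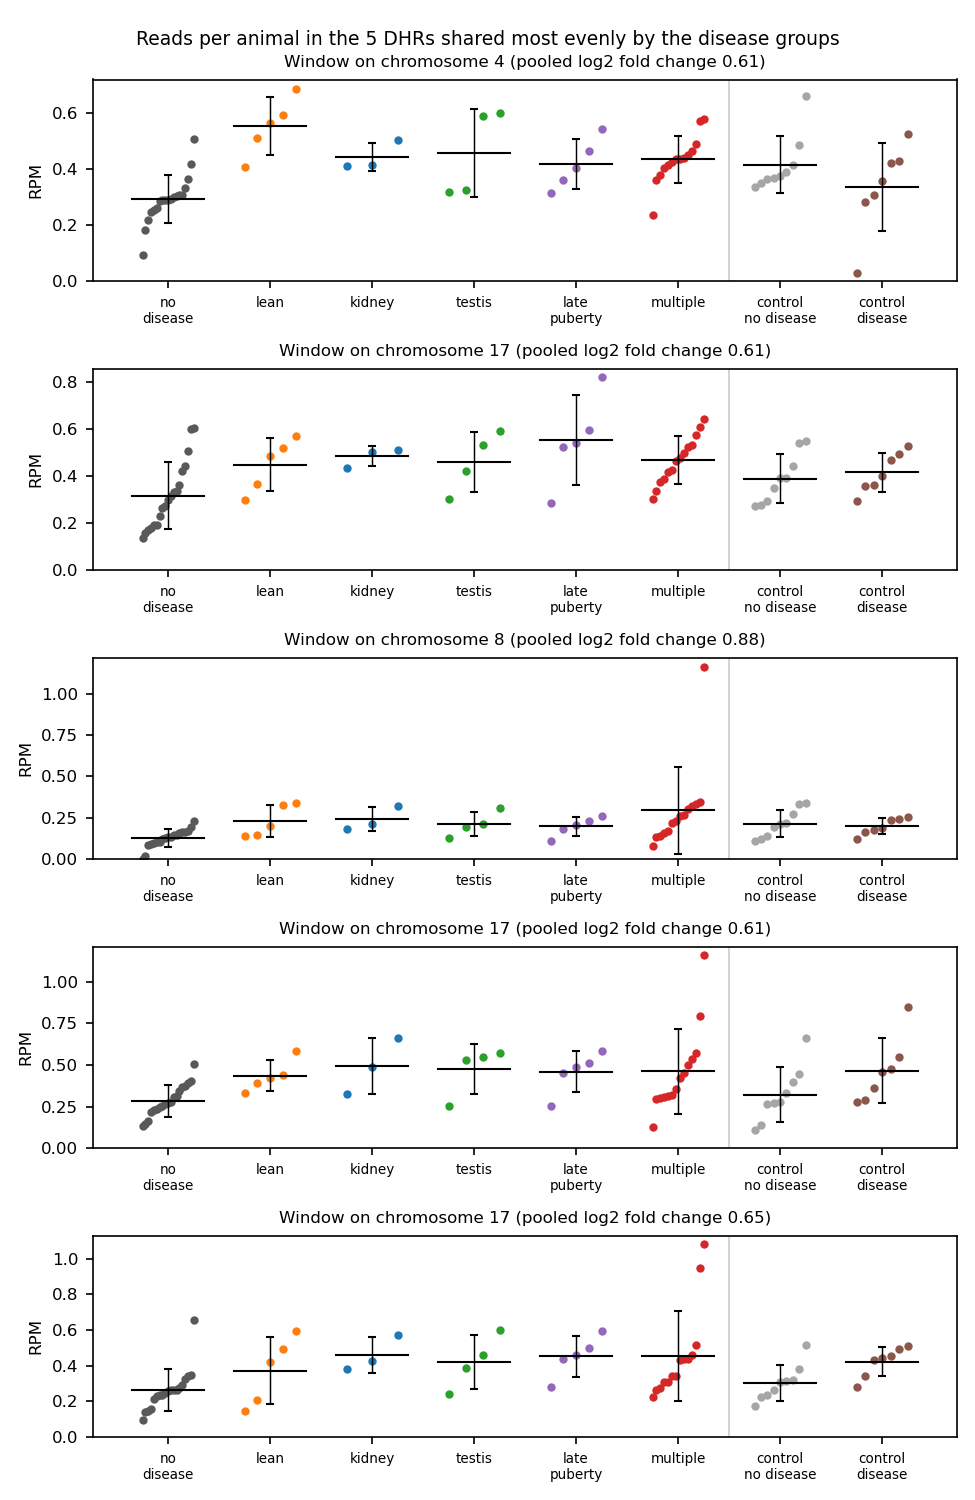
RPM (vertical axes) of single animals in the 5 DHRs with the largest change common to the 5 disease groups, by group (horizontal axis), where points are animals and bars are the mean and SD. The 19 disease-free animals of the atrazine lineage overlap every disease group, and M48 is the highest point at 3 of the 5 DHRs, with 1.16, 1.16 and 1.08 RPM.

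Among the DHRs that were lower in disease, chr1:155958001-155960000 had the smallest p. The disease-free animals lay between 0.272 and 0.698 RPM with a median of 0.499. The lean animals had 0.381, 0.168, 0.297, 0.297 and 0.421 RPM, the kidney disease animals 0.33, 0.389 and 0.467, the testis disease animals 0.336, 0.391, 0.333 and 0.379, and the late puberty animals 0.463, 0.243, 0.421, 0.349 and 0.436. Multiple disease animals were between 0.166 and 0.532 RPM with a median of 0.35. Only 1 of the 31 diseased animals was above the disease-free median, and the log2 fold change was -0.51 (SE 0.11). At chr3:70655001-70656000, also with 1 diseased animal above the disease-free median, the medians were 0.308 RPM in disease and 0.507 RPM without disease. Lean animals M28 and M42 were lowest there, with 0.0847 and 0.0839 RPM. At chr6:119208001-119209000 the medians were 0.261 RPM in disease and 0.417 RPM without disease, and 3 of the 31 diseased animals were above the disease-free median.

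Of the 25 DHRs, 2 lie in regions for which the study's tables list a gene. These regions were chosen by the authors on these same animals, in the multiple disease comparison. The DHR listed with Dolk, which encodes dolichol kinase, an enzyme that makes the lipid carrier for protein glycosylation, was chr3:8861001-8862000. It was higher in disease, with 0.395 ± 0.148 RPM (SD, n = 31) against 0.238 ± 0.0743 RPM (SD, n = 19), and 27 of the 31 diseased animals were above the disease-free median. The log2 fold change was 0.80 in the multiple disease, 0.74 in the lean and 0.11 in the kidney group, and the test among the disease groups described below gave p = 0.166 for this window. The DHR listed with Meioc, a germ cell gene needed for meiosis, was chr10:90638001-90639000, with 0.407 ± 0.112 RPM (SD, n = 31) in disease and 0.271 ± 0.0858 RPM (SD, n = 19) in the disease-free animals. It changed by 0.69 on the log2 scale in the multiple disease group and by 0.16 in the lean group.

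Another 3 higher DHRs overlapped in the same way. At chr4:40311001-40312000 the diseased animals lay between 0.18 and 0.47 RPM with a median of 0.285, and the disease-free animals between 0 and 0.318 with a median of 0.176. All 31 diseased animals were above that median, and the log2 fold change was 0.63 (SE 0.15). At chr17:38577001-38578000 the medians were 0.37 RPM in disease and 0.247 RPM in the disease-free animals, with 29 of the 31 diseased animals above the latter. At chr5:142273001-142276000 they were 0.406 and 0.293 RPM, with 23 of 31 above.

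A further 4 DHRs were lower in disease. At chr8:55817001-55821000 the diseased animals lay between 0.0829 and 0.5 RPM with a median of 0.34, and the disease-free animals between 0.249 and 0.653 with a median of 0.506. None of the 31 diseased animals was above that median, and the log2 fold change was -0.47 (SE 0.11). The medians in diseased and disease-free animals were 0.354 and 0.479 RPM at chr1:15116001-15119000 and 0.349 and 0.524 RPM at chr15:29104001-29105000. In both, 1 of the 31 diseased animals was above the disease-free median. At chr4:120583001-120584000 the medians were 0.338 and 0.465 RPM, with 4 diseased animals above the latter.

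The values of single disease groups at the remaining DHRs covered wide ranges. None of these DHRs had a p below 0.05 in the test among the disease groups, where 2.8% of all windows did. Such a count from few windows does not show that the groups agree. At chr6:104864001-104867000 the log2 fold change was 0.85 in lean but 0.03 in testis disease animals. At chr1:123484001-123486000 the testis disease group led with 0.83 and the kidney group had 0.26, and at chr4:45209001-45212000 the kidney group had 0.67 and the lean group 0.20. Among the lower DHRs, the value at chr1:269302001-269303000 was -0.97 in lean and -0.31 in testis disease animals. At chr6:67296001-67297000 it was -0.72 in multiple disease and -0.22 in lean animals, and at chr15:74261001-74262000 it was -0.66 in multiple disease and -0.14 in kidney disease animals.

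The counts of changed windows differed widely between the disease groups when each was compared with the same 19 disease-free animals in 1 model of 6 groups. All 5 comparisons share these reference animals, and their values are therefore given side by side only. In the lean group 1243 windows had a p below 0.0001 (0.05% of windows), 246 higher (0.0099%) and 997 lower (0.0401%). In the other groups such windows were rare, with 14 (0.000563%) in the kidney, 22 (0.000885%) in the testis, 21 (0.000845%) in the late puberty and 36 (0.00145%) in the multiple disease group. Without M28 and M48 these counts rose to 40, 94, 67 and 95, although M28 and M48 belong to the lean and the multiple disease group, and the lean count was 1121. Without testis disease animal M41 the testis count was 60. Windows with p below 0.05 made up 11.1%, 2%, 2.36%, 2.35% and 4.04% in the same order, and edgeR's quasi-likelihood test gave 0 windows with an adjusted p below 0.05 in any of the 5.

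Without M28 and M48, 4 windows of this model had an adjusted p below 0.05 in edgeR's quasi-likelihood test. For the testis group they were chr1:92250001-92251000 and chr1:92251001-92252000, with an adjusted p of 0.00375. All 4 testis disease animals had 0 reads in both, which allows up to 0.0126 RPM over the group (3 reads, counting error only). The disease-free animals lay between 0 and 0.509 RPM in both windows, with medians of 0.19 and 0.216, and 2 of the 19 also had 0 reads. For the lean group the windows were chr1:38874001-38875000 and chr14:22382001-22383000, with an adjusted p of 0.0441. With the left-out M28 included, the 5 lean animals had between 0.235 and 0.974 RPM in the first, where the disease-free animals had between 0.68 and 1.47, and between 0.0168 and 0.339 RPM in the second, where the disease-free animals had between 0.218 and 0.699. The ranges overlapped at the testis windows, and at the lean windows with M28 included. Overlap at the lean windows among only the animals of that fit was not examined. The pooled p of the 4 windows was between 0.0141 and 0.549.

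The lean count depended on single animals. It fell to 464 without M28 and to 292 without M42, rose to 2749 without M54 and to 3464 without M66, and was 1612 without M56. With M54 left out 230 windows had an adjusted p below 0.05, and with M66 left out there were 573. M66 is the only lean animal with the DMSO tag. After thinning to 19000000 reads M42 had no reads in 8.94% of windows and M28 in 9.10%, where the disease-free animals had at most 7.63%. For the kidney group the count was 103 without M60 and 4 without M64. With each of the 5 disease groups given the same weight, 31 windows (0.00125%) had a p below 0.0001, of which 8 were higher (0.000322%) and 23 lower (0.000925%), so that the balance of directions differed from that of the pooled animals.

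**Figure D2:**
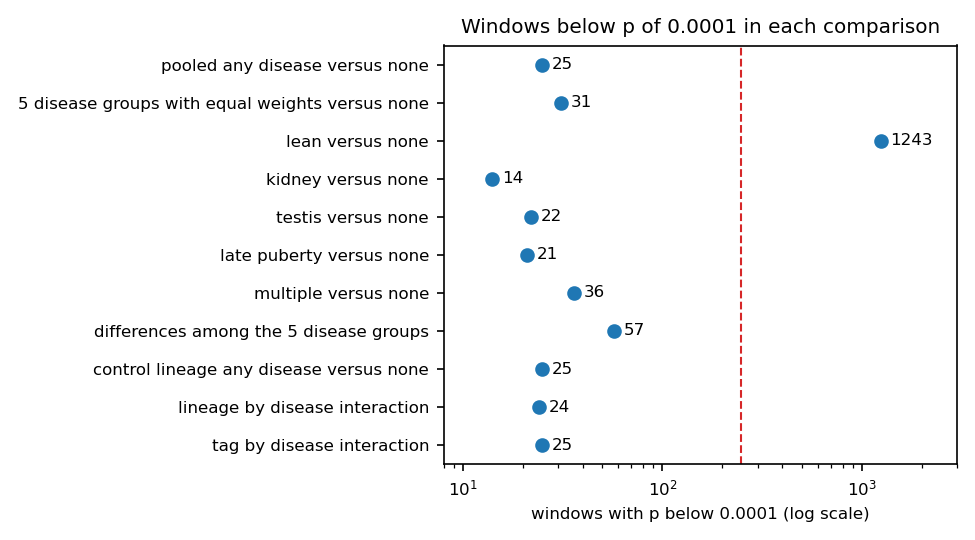
Number of windows with p below 0.0001 (horizontal axis, log scale) in the pooled comparison, the comparisons of single disease groups and the control lineage, with the number expected from uniform p-values, 249, as a dashed line. Among these comparisons only that of the lean animals, with 1243 windows, lies to the right of the line.

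A change shared by all diseases was also asked for directly, as windows where each of the 5 disease groups had a p below 0.05 in 1 direction against the disease-free animals. There were 8 such windows (0.000322% of those tested), 7 higher (0.000282%) and 1 lower (4.02e-05%). A further relaxation to at least 4 of the 5 groups, with all 5 in 1 direction, gave 176 windows (0.00708%). Both counts depend on the shared reference, since 19 animals that happen to be low at a window raise all 5 differences together. The multiple disease group also shares diseases with the other groups, so the 5 groups are not 5 separate diseases. Of the 8 windows, 4 were also DHRs of the pooled comparison, namely chr4:173390001-173391000, chr17:48730001-48731000, chr17:70816001-70818000 and chr12:49567001-49568000. The other 4 were chr8:112620001-112621000, chr10:41307001-41308000 and chr15:14928001-14929000, with pooled log2 fold changes of 0.65, 0.50 and 0.50, and chr1:10413001-10414000, the lower one, at -0.44.

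At chr12:49567001-49568000 the 2 libraries that stood apart were the highest of all, with 1.16 RPM in multiple disease animal M48 and 1.06 RPM in lean animal M28. The disease-free animals lay there between 0.181 and 0.426 RPM. The log2 fold change of this window was 0.66 within the Atrazine tag and 0.13 within the DMSO tag. It kept a p below 0.0001 under 10 of 22 alternatives. The group log2 fold changes were 0.71 in lean, 0.52 in kidney, 0.55 in testis, 0.44 in late puberty and 0.50 in multiple disease animals. At chr8:112620001-112621000 they were 0.76, 0.71, 0.86, 0.73 and 0.49 in the same order, and the testis group had the largest value.

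The 16 control lineage animals measured the same windows in animals that had no part in choosing the DHRs. Their diseases were only in part those of the atrazine lineage. Of the 7 diseased animals 3 were obese, 1 had late puberty and was obese, 1 had late puberty, 1 had kidney disease, and 1 had kidney disease and was lean, and none had testis disease. Between their 7 diseased and 9 disease-free animals, 25 windows (0.00101%) had a p below 0.0001, 3.06% had a p below 0.05, and edgeR's quasi-likelihood test gave 0 windows with an adjusted p below 0.05. Of the 25 DHRs of the atrazine lineage, 17 changed in the same direction by sign alone, and 3 had a p below 0.05, all in the same direction. The 14 higher DHRs had a median log2 fold change of 0.13 in the control lineage against 0.61 in the atrazine lineage, and the 11 lower DHRs -0.02 against -0.51. The atrazine lineage medians are inflated because the DHRs were chosen by their p-value in these animals, and animals outside that choice would lie nearer to 0, so these medians are no comparison of the lineages.

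The 3 DHRs with a p below 0.05 in the control lineage included the region listed with Dolk, with a log2 fold change of 0.71 (SE 0.27, p = 0.00981). The others were chr3:70655001-70656000 at -0.54 (SE 0.23, p = 0.023) and chr17:7408001-7409000 at 0.46 (SE 0.23, p = 0.0489). None of these had an adjusted p below 0.05 over all windows in edgeR's quasi-likelihood test. In contrast, at chr4:173390001-173391000 the control lineage value was -0.26 (SE 0.24, p = 0.29), in the opposite direction to the atrazine lineage. The control disease animals there lay between 0.0302 and 0.527 RPM with a median of 0.358, and the control animals without disease between 0.337 and 0.661 with a median of 0.377. The disease-free animals of the atrazine lineage, with their median of 0.291 RPM, were thus lower than both control groups at the median. This window was chosen by a difference in which these disease-free animals were low, so this order is no comparison of the lineages.

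**Figure D3:**
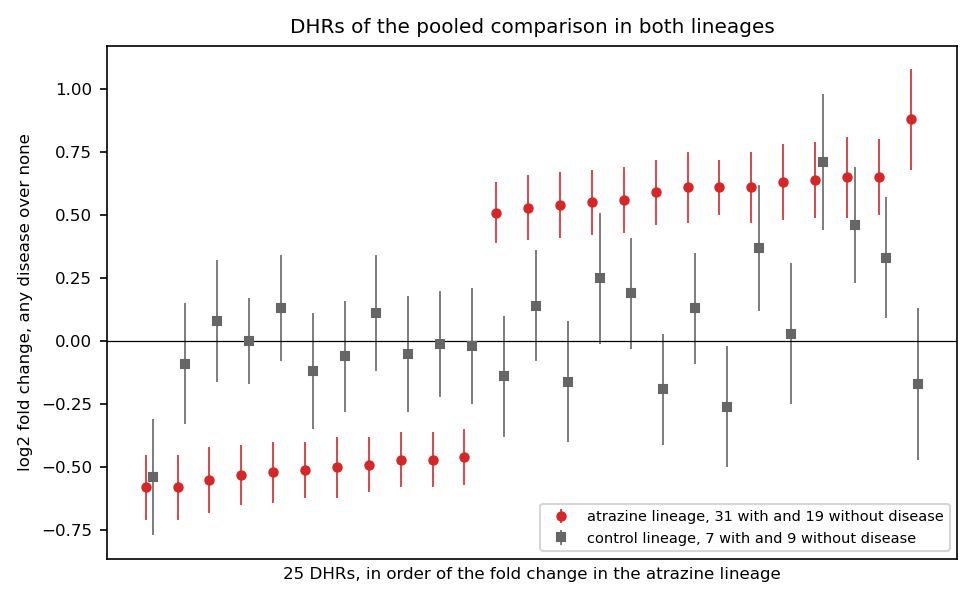
Log2 fold change of diseased over disease-free animals (vertical axis, bars are the standard error) at the 25 DHRs (horizontal axis, in order of the value in the atrazine lineage), in both lineages. The control lineage values lie around 0, with medians of 0.13 at the higher and -0.02 at the lower DHRs.

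The difference between the lineages was tested with an interaction term over all 66 animals. A p below 0.0001 was found for 24 windows (0.000966%), 2.6% of windows had a p below 0.05, and edgeR's quasi-likelihood test gave 0 windows with an adjusted p below 0.05. Among the 25 DHRs 11 had an interaction p below 0.05, but the atrazine lineage difference that chose them enters this test. At chr4:173390001-173391000 the interaction p was 0.000794 and its adjusted p 1.

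The treatment tag was used to split the 50 animals. Within the 37 animals tagged Atrazine 20 windows (0.000805%) had a p below 0.0001, and within the 13 tagged DMSO there were 112 (0.00451%), again with 0 windows at an adjusted p below 0.05 by edgeR's quasi-likelihood test, and with 2.6% and 3.57% of windows at a p below 0.05. The interaction of tag and disease had a p below 0.0001 in 25 windows (0.00101%) and a p below 0.05 in 2.54%, and an adjusted p below 0.05 in 0. At the 25 DHRs the log2 fold change within the DMSO tag had the pooled direction in 25 and a p below 0.05 in 16, although these animals were also among those that chose the DHRs. Of the 112 windows within the DMSO tag, 12 lie in the mitochondrial genome, whose 17 windows had log2 fold changes between -0.94 and -0.73 and are not independent of each other. As a share of reads per animal, the mitochondrial genome took between 0.00619% and 0.0155% in the 7 diseased and between 0.00694% and 0.0436% in the 6 disease-free animals with this tag, with M69 and M67 highest. This share had an exact permutation p of 0.118 within the tag and a permutation p of 0.102 for the interaction with the tag. Over all 50 animals the same windows lay between -0.07 and 0.02, and within the Atrazine tag between 0.29 and 0.41. The smallest adjusted p of these windows was 0.96 within the DMSO tag and 1 for the interaction in edgeR's quasi-likelihood test, so that this contrast did not hold after adjustment.

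Disease groups were also compared among themselves, over the 31 diseased animals and without the shared reference. This F test gave 57 windows (0.00229%) with a p below 0.0001, 2.8% with a p below 0.05, and 0 with an adjusted p below 0.05 by edgeR's quasi-likelihood test. None of the 25 pooled DHRs had a p below 0.05 in it. The pooled p that chose them favours windows with little spread among the diseased animals, so this count does not show that the groups agree. The smallest p of the F test belonged to chrX:70095001-70096000, where the lean animals had 0, 0, 0.0142, 0 and 0.0601 RPM. The kidney disease animals had 0.182, 0.204 and 0.216 RPM and the testis disease animals 0.23, 0.27, 0.308 and 0.235 RPM. Late puberty animals had 0.0771, 0.187, 0.15, 0.285 and 0.129 RPM, and the disease-free animals lay between 0.0449 and 0.338. The multiple disease animals lay between 0 and 0.342 RPM. All lean animals except M66 were below the lowest disease-free animal, and so were multiple disease animals M48 and M63, with 0 and 0.0379 RPM. Both M48 and M63 are also tagged lean, as are other multiple disease animals that were not below it. The pooled log2 fold change of all diseased animals was -0.01.

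Lean animals were also low at chr19:28678001-28679000, with 1.36, 0.822, 0.651, 0.705 and 1.11 RPM. Multiple disease animals lay between 1.16 and 2.56 RPM and the disease-free animals between 0.741 and 2.42 RPM, so that both overlapped the lean animals. There the kidney disease animals had 1.82, 2.16 and 1.65 RPM, the testis disease animals 2.03, 1.88, 2.15 and 2.07, and the late puberty animals 2.65, 2.26, 1.81, 1.76 and 1.78. At chr10:550001-551000 the lean animals were instead high, with 0.932, 0.57, 0.594, 0.854 and 0.421 RPM, against 0.283, 0.165, 0.0769 and 0.222 RPM in the testis disease animals, and they overlapped the multiple disease animals at 0.269 to 0.746 RPM and the disease-free animals at 0.14 to 0.583 RPM. The pooled log2 fold changes of these windows were 0.14 and 0.18, and opposite group differences were thus averaged in the pooled value.

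With the treatment tag as a covariate 75 windows (0.00302%) had a p below 0.0001 and 3.32% a p below 0.05. Without M28 and M48, 450 windows (0.0181%) differed among the disease groups at a p below 0.0001 and 4.23% at a p below 0.05, and 101 windows (0.00406%) at an adjusted p below 0.05 in edgeR's quasi-likelihood test. Among the windows described above, chr19:28678001-28679000 had an adjusted p of 6.2e-05 in that test and chrX:70095001-70096000 of 0.0165. That of chr10:550001-551000 was 0.325. Windows that started at most 100000 bp apart were joined, which placed these 101 windows in 27 stretches, and the 4 with the most windows, chosen after their values were seen, are described. The most windows, 39 that were not all adjacent, lay in chr16:64899001-64983000. The others were chr7:10257001-10275000 with 12, chr14:101972001-101995000 with 7 and chrX:150612001-150625000 with 6. The next were tied at 3 windows each, on chr5:77651001-77673000, chr19:398001-437000 and chr19:26483001-26537000. The testis disease group was high at the chromosome 16 stretch, with a median of 2.7 mean RPM per window and a range from 0.791 to 2.99. The disease-free animals had a lower median of 0.848 there, but their range, from 0.513 to 5.05, held all of the testis disease animals.

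The same 13 of the 66 animals were the 13 highest in each of these 4 stretches. At the chromosome 16 stretch they lay between 1.04 and 2.67 above the median of the series on the log2 scale, and the other 53 animals between -1.10 and 0.37. They were 7 diseased and 5 disease-free animals of the atrazine lineage and 1 animal of the control lineage. Of the testis disease group 3 of 4 animals belonged to them, of the multiple disease group 3 of 14, and of the lean group 1 of 5, which was M28. No animal of the atrazine lineage kidney disease and late puberty groups did. The control lineage animal had kidney disease and was lean. Their total counts, between 26487836 and 76754253, lay inside the range of the other animals, and 1 of them had the DMSO tag. In the pooled comparison the smallest p in these 4 stretches was between 0.255 and 0.508. The cause of this pattern was not tested.

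**Figure D4:**
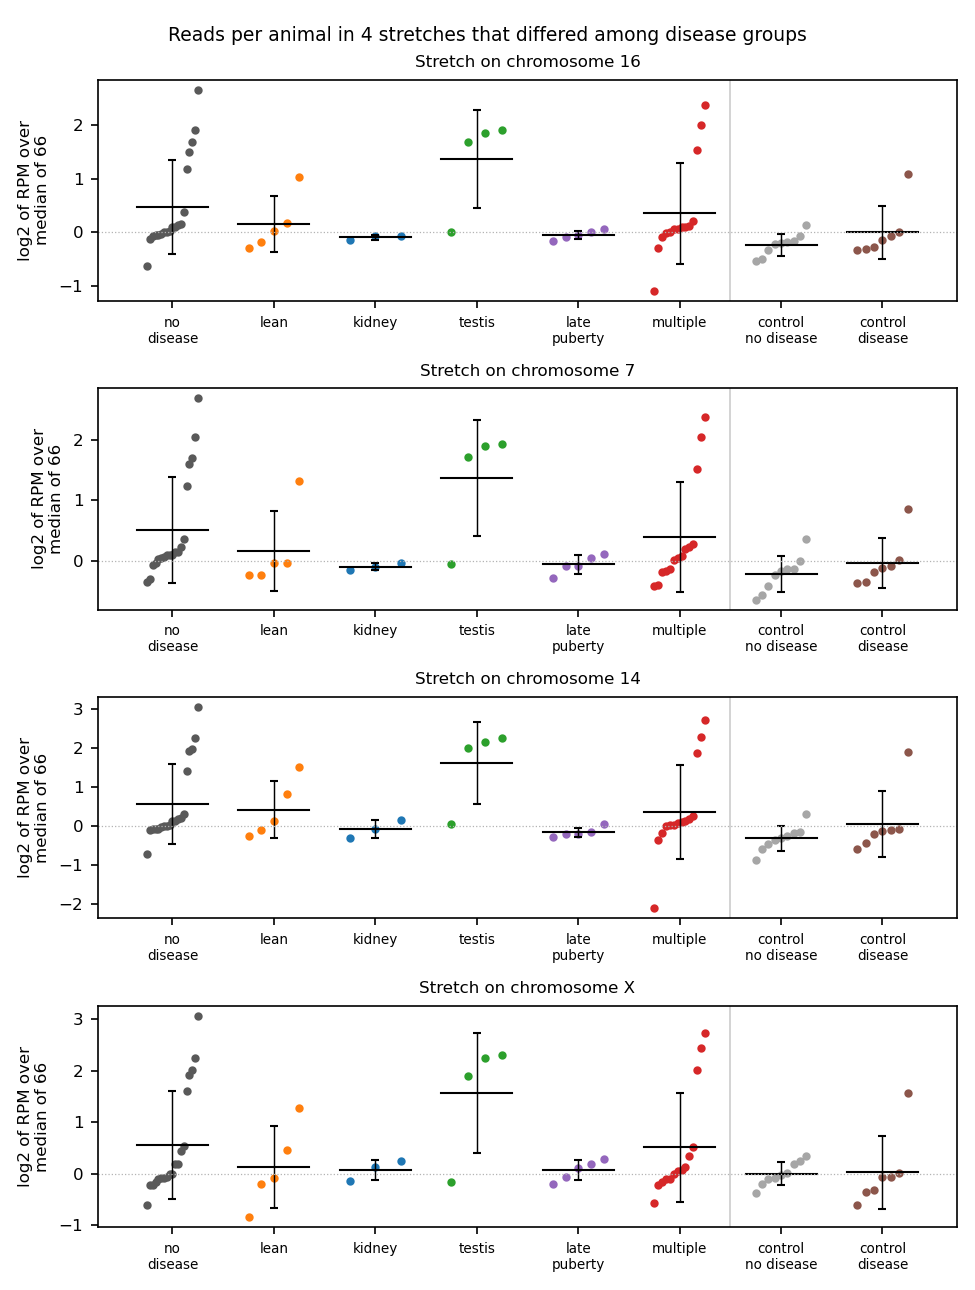
Mean reads of each animal in 4 of the stretches that differed among the disease groups (vertical axis, log2 over the median of all animals), by group (horizontal axis), where each point is 1 animal and bars are the mean and SD. High animals occur in the testis, multiple disease, lean, disease-free and control disease groups, 3 of 4 in the testis and 5 of 19 in the disease-free group at the chromosome 16 stretch.

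Windows with a pooled p below 0.05 were not spread evenly along the genome. In 2785 intervals of 1 Mb the median share of such windows was 3.06% and the 95th percentile 4.28%, and 7 intervals were above 10%. The highest share was 19.6%, 134 of 682 windows, in the interval of chromosome 19 from 26 to 27 Mb, where all of these windows were higher in disease. Chromosome 19 from 28 to 29 Mb had 18.6% and chromosome 1 from 76 to 77 Mb had 16.9%. In the control lineage these intervals had 1.61%, 2.64% and 4.16% in the same order, beside 3.06% over all windows. These intervals were chosen after their values were seen, and neighbouring windows are not independent, so they are described without a test.

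At chromosome 19 from 26 to 27 Mb the mean per window was 1.2 ± 0.21 RPM (SD, n = 31) in disease and 1.05 ± 0.167 RPM (SD, n = 19) without disease. In the control lineage it was 1.2 RPM with disease and 1.15 RPM without. The disease-free animals of the atrazine lineage were thus lower than both control groups on average. The interval was chosen by its values in the atrazine lineage, so this order is no comparison of the lineages either. Multiple disease animal M48 had 2.04 RPM there and the next diseased animal 1.32, and without M48 the mean in disease was 1.17 ± 0.143 RPM (SD, n = 30). The lean animals did not show a higher median, with a median of 1.01 RPM against 1.07 RPM in the disease-free animals. Medians in the other groups were 1.19 RPM in kidney, 1.22 in testis, 1.28 in late puberty and 1.24 in multiple disease animals. At chromosome 1 from 76 to 77 Mb the kidney disease animals lay between 0.561 and 0.613 RPM and the testis disease animals between 0.561 and 0.605 RPM, all above 0.455 RPM, the median of the disease-free animals, which ranged from 0.242 to 0.629. The medians of the lean and the late puberty animals there, 0.424 and 0.45 RPM, were just below it. By these medians neither interval showed a rise in all 5 groups. On chromosome 1 the mean was 0.479 RPM in late puberty and 0.438 in lean animals, against 0.451 in the disease-free animals. The median log2 fold change of the windows in the lean group was 0.01 on chromosome 19 and -0.10 on chromosome 1.

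**Figure D5:**
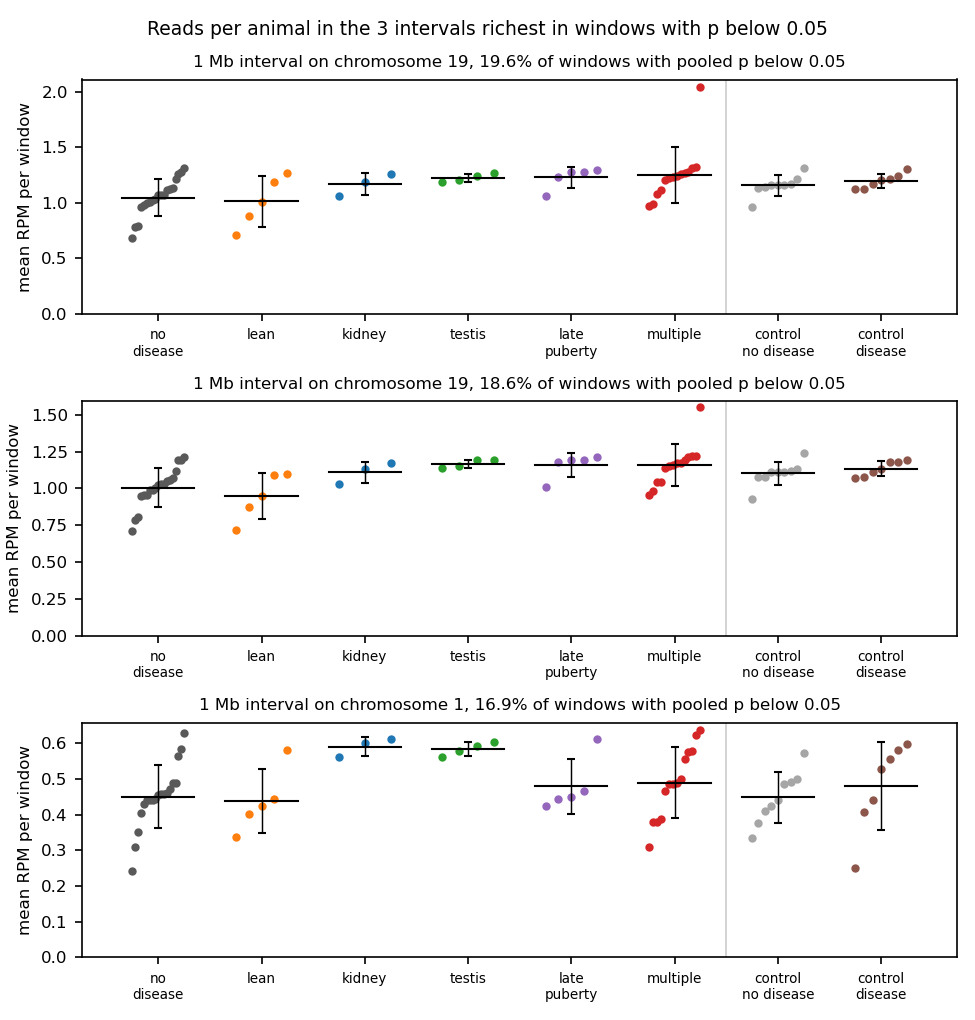
Mean RPM per window of single animals (vertical axes) in the 3 intervals of 1 Mb with the highest shares of windows at a pooled p below 0.05, by group (horizontal axis), with the mean and SD of each group. The disease-free animals of the atrazine lineage overlap every group, and the medians of the lean animals, the first at 1.01 RPM, lie below theirs.

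The regions of changed DNA methylation that the study lists for these animals were used as positions. Of 2459 tested windows in them, 106 (4.31%) had a pooled p below 0.05 for histone retention, beside 3.12% over all windows, with 76 higher and 30 lower, and 0 had a p below 0.0001. The shares were 3.61% for the lean, 3.99% for the kidney, 5.53% for the testis, 4.6% for the late puberty and 2.96% for the multiple disease list. By the gene categories of the study, windows of the Metabolism category had 17 of 162 (10.5%) and those of the Development category 4 of 44 (9.09%), all higher in disease. Receptor had 5 of 97 (5.15%), Cytoskeleton 2 of 62 (3.23%), Transcription 4 of 120 (3.33%), Signaling 7 of 140 (5%) and Transport 0 of 44. Most of the Metabolism windows, 14, lie in regions listed with Sult2a6, a sulfotransferase gene whose family attaches sulfate to steroids and bile acids, and these are in the interval of chromosome 1 from 76 to 77 Mb described above. Within it the largest difference of these windows, in the window that starts at position 76331001, was a log2 fold change of 0.84 (p = 0.000487), with an adjusted p of 1 in edgeR's quasi-likelihood test. No test was made of these shares, since the methylation lists were made from the same animals.

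A change in how reads were spread over the genome was looked for with 7 measures per animal. Every library was thinned to 19000000 reads except for the total count. Thinned measures could still follow the original depth. Among the disease-free animals the deepest library, M68, had the lowest share of reads in the top 5% of windows, 13.6%. The shallowest, M67, had the highest, 15.8%. Mean total counts were 53000000 in disease and 66400000 without disease, so differences in these measures are not separated from depth. A uniform gain or loss of retained histones would leave the shares of reads unchanged. The total count follows sequencing depth, so none of the 7 measures could show such a change. No measure had an adjusted p below 0.05, and the adjusted p-values of the two-sided permutation test were between 0.338 and 0.92. The share of reads in the 5% of windows with the most reads was 15.8% ± 4.03 (SD, n = 31) in disease and 14.8% ± 0.483 (SD, n = 19) without disease (permutation p = 0.139). The wide spread in disease belongs to M48 at 37.2%. Windows with 0 reads made up 7.38% ± 2.49 (SD, n = 31) and 6.78% ± 0.308 (SD, n = 19), with a permutation p of 0.193. The X chromosome took 3.06% ± 0.292 (SD, n = 31) and 3.08% ± 0.264 (SD, n = 19) of the reads (permutation p = 0.77), and the mitochondrial genome 0.0153% ± 0.0106 (SD, n = 31) and 0.0158% ± 0.00949 (SD, n = 19), with a permutation p of 0.847.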

How the data were processed

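Sperm histone H3 ChIP-Seq of single F3 rats was analysed. The unit is counts, raw reads per window of 1000 bp, deposited by the authors, who cleaned reads with Trimmomatic, mapped them to Rnor_6.0 with Bowtie2 and counted them with MEDIPS. How far reads were extended and how duplicate reads were treated are not given in the sources used here. The study's methods also name an antibody for a trimethylated histone H3, and describe sperm pools, while counts are given per animal. Another 298 columns, normalized values or repeated counts, were not used, nor were the authors' own fold changes and p-values. Control lineage animal M1 was not analysed here. Groups follow the lineage and disease tags. Animals are taken as the replicates, and 348 pairs of animals within groups differed by more than sampling noise (chi-square per degree of freedom between 1.7 and 11.1).

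Counts were tested in R 4.3.3 with edgeR 4.0.16 (glmQLFit and glmQLFTest), TMM factors, and a dispersion trend from 200000 random windows. DHRs are windows with p below 0.0001, joined with windows of p below 0.1 that lie within 1000 bp. Adjusted p-values are Benjamini-Hochberg over all windows tested. Permutation tests used 100000 resamples, or all splits for the 13 DMSO-tagged animals. Alternatives included DESeq2 1.42.0, covariates and left-out animals or groups. Recovery was counted at an unadjusted p below 0.0001 on 100000 simulated windows of the pooled comparison. The test recovered 0% of 1.25-fold, 62% of 1.5-fold and 98% of 2-fold changes, and called 9 of 99800 unchanged windows. Recovery at an adjusted p below 0.05 was not simulated, so these shares do not describe the adjusted result. Counts were simulated with a single common dispersion and no libraries that stand apart in their spread of reads. Of the unchanged simulated windows 4.81% had a p below 0.05, against 3.12% of the real windows. Recovery in the real data may therefore differ. Total counts per animal set the counting error, and intervals cover the 50 animals only.

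The members, lists and alternatives were chosen with earlier results of these data known. Described are the 10 DHRs of smallest p in each direction, the 3 windows of smallest p among disease groups and the 5 DHRs with the largest change common to the disease groups, not all in full. Genes are those the study's tables list. No gene lists or cell type markers were counted, since no annotation of this build was used.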

Additional observations from a re-analysis of the deposited data

Results flagged for a closer look

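Some single values stood apart within small groups. A gap test at the 95% level was run on 45 sets of values in groups of 4 or 5 animals and marked 5 of them, where chance marks about 1 in 20. Lean animal M28 was marked for its share of reads in the top 5% of windows, 18.4%, the highest of 5, and for its mitochondrial share, 0.00379%, the lowest of 5. Late puberty animal M35 had the highest share of windows with 0 reads of its group, 6.85%. At chr17:70816001-70818000 testis disease animal M33 was lowest of 4 with 0.256 RPM, and at chrX:70095001-70096000 lean animal M66 was highest of 5 with 0.0601 RPM, a value within the range of the disease-free animals.

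The 101 windows that differed among the disease groups once M28 and M48 were left out, at an adjusted p below 0.05 in edgeR's quasi-likelihood test, were marked because groups differed under the same comparison. With both animals included there were 0 such windows, and the smallest p in the 4 stretches with the most windows was then between 0.000201 and 0.00117.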

How the results depend on the processing

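No paired analysis was possible because no animal belongs to more than 1 group and the animal numbers pair nothing. The sample labels used here give no litter or family, so relatedness among the animals is unknown and was not modelled. The pooled comparison gave 0 windows with an adjusted p below 0.05 under every alternative but edgeR's exact test, which gave 1. The DHR windows kept their direction under every alternative in which they were tested, but these alternatives used animals that had chosen the windows. Of the windows, 0 (DMSO tag only) to 25 kept a p below 0.0001. The number of windows with p below 0.0001, 25 (14 higher, 11 lower, 25 DHRs), was 38 (17 lower) without the filter, 51 (43 higher, 49 DHRs) with the share of reads in the top 5% of windows as a covariate, 112 (51 higher, 61 lower, 94 DHRs) within the DMSO tag, 42 (31 higher, 41 DHRs) without M48, 62 (50 higher, 59 DHRs) without M28 and M48, 45 (25 higher, 20 lower, 43 DHRs) without the multiple disease group and 54 (36 higher, 18 lower, 54 DHRs) with the share of reads on X as a covariate, an alternative chosen after seeing the data. Lower windows numbered 7 with robust empirical Bayes and 7 without M59 and M68, and equal group weights gave 8 higher and 23 lower. On the 250000 sampled windows the quasi-likelihood test gave 6, the exact test 17 (12 higher, 5 lower) and DESeq2 11 (8 higher).

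Alternatives of the model with 6 groups were also chosen after seeing the data. With 1 animal left out at a time the counts were 292 to 3464 for lean, 4 to 103 for kidney, 21 to 60 for testis and 24 to 36 for late puberty, where testis without M41 gave 60. Without M28 and M48 there were 40 windows for kidney, 94 for testis, 67 for late puberty and 95 for multiple disease, and the tag as a covariate gave 42 for testis. Among the disease groups 450 windows, 101 with an adjusted p below 0.05, were found without M28 and M48. The control lineage gave 15 with a mean of at least 20 reads. Differences in library measures turned direction, none with a permutation p below 0.05. Without M28 and M48 the share on X was 0.0237, on Y 0.000669 and on MT 8.47e-05 percentage points higher in disease. Within the DMSO tag X was 0.128 and Y 0.00269 higher, and within the Atrazine tag MT was 0.00315 higher. The median of the mitochondrial windows was 0.35 within the Atrazine tag. The causes of these changes were not tested. Windows of 10 to 15 reads had their 95% interval within 1.5-fold in 77.6% of cases, and windows of at least 50 reads in 95.3%.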
